A study of Mus musculus with 9 samples.

Results

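Enzymes of glycolysis, the tricarboxylic acid (TCA) cycle and the pentose phosphate pathway were followed in hormone receptor positive (HR+) cells of the mouse mammary gland, the luminal cells that carry the receptors for estrogen and progesterone. The set is a list of enzyme names, whose rule holds no threshold on a measured value. It has 35 genes, of which 31 had 57 probes in the platform annotation. For 26 of them at least 1 probe was bright enough to be tested, among 11261 named genes tested in all. Hk2, Gpi1, Eno1 and G6pdx had no probe under their symbols and were not analysed here. All probes of Hk1, Ldhb, Pdk2, Mdh1 and Pgd stayed under the background level of 100 in the mean of every group, so that for these 5 enzymes only a level close to background can be given.

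Cells came from adult FVB females, given as 9 to 11 weeks old for all groups in the labels; by the study's methods the virgin animals were 11 weeks old when injected, and the others were 9 to 11 weeks old at mating and were harvested on the given day after it. Age and pregnancy cannot be told apart where they differ. There were 3 virgin females at metestrus, and a timed pregnancy was stopped at day 3 in 3 others and at day 7 in the remaining 3. All 9, the virgin controls included, had received EdU at 2 mg per g of body weight 24 hours before harvest. Luminal cells were sorted by CD24 and CD49f, and HR+ cells among them by Sca1 and CD49b, after cells with CD45 had been removed. For each animal 1000 cells were sorted, RNA equal to 167 cells was amplified in repeated rounds, and the product was hybridised to an Illumina array of its own, so that each group has n = 3 animals. Values are log2 normalised signals, and a difference of 1 on this scale is a 2-fold change. Below, a gene rose or fell where limma, a linear model with a spread steadied over all probes, gave an adjusted p of 0.10 or less, and it was called where the change was also 2-fold or more, the thresholds of the study's methods. Changes are given with their standard error (SE).

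Glycolysis splits glucose into pyruvate in the cytosol and yields a little ATP and NADH. Pyruvate either becomes lactate or enters the mitochondrion, where the pyruvate dehydrogenase complex turns it into acetyl-CoA for the TCA cycle, which feeds the respiratory chain and supplies citrate for fat synthesis. The pentose phosphate pathway branches off at glucose phosphate and gives NADPH and the ribose of nucleotides. In the mammary gland these routes are best known for the lactating gland, where glucose goes into lactose, fat and energy, and dividing cells in general draw on them for building blocks.

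The arrays were comparable but not equal in brightness. Before normalisation the mean raw signal was 284 to 316 in virgin animals, 353 to 520 at day 3 and 348 to 440 at day 7. Of the 10 markers listed for HR+ cells 8 were tested, with a summed signal of 32380 to 46180 in virgin animals, 29360 to 30840 at day 3 and 23480 to 24570 at day 7, and the brightest of them were the luminal keratins Krt8 and Krt18. Of these 8, 1 rose and 3 fell at day 3, and 5 fell at day 7. Esr1, the estrogen receptor gene, was near background in the mean of every group, at 6.79, 6.87 and 6.93. Markers of dividing cells, of basal cells and of erythroid cells moved with the groups. The summed signal of 8 tested cycling markers was 968 to 1135 in virgin animals, 6398 to 9025 at day 3 and 1768 to 2568 at day 7. That of 3 erythroid markers was 359 to 388, 797 to 1152 and 1747 to 5037, and that of 6 basal markers 653 to 1614, 1274 to 4512 and 3085 to 13210. Markers of HR- luminal cells gave 4942 to 9476, 1559 to 2901 and 1542 to 4683, and those of fibroblasts 2340 to 3188, 2622 to 3211 and 712 to 942, in the same order. At day 3, 7 cycling, 1 erythroid and 1 basal marker rose and 1 of the HR- luminal cells fell. At day 7, 4 cycling, 2 erythroid and 2 basal markers rose, 1 fibroblast marker fell, and of the HR- luminal markers 3 rose and 1 fell. Their part in the results below was not tested. In such bulk samples fewer cells of a type and less RNA per cell cannot be told apart.

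Most enzymes moved by less than 2-fold in early pregnancy, and more of them rose than fell. At day 3 of pregnancy 9 of the 26 tested enzymes rose and 4 fell, beside 12.7% and 10.5% of all genes tested, and their median change was 0.17 against -0.01 for all genes. Only Idh2 was called higher and none was called lower, where 2.82% and 3.00% of all genes were called. The virgin and day 3 animals did not overlap for 15 of the 26, beside 35.4% of all genes. At day 7, 8 enzymes rose and 1 fell (all genes 14.3% and 12.0%), with a median change of 0.24, again against -0.01 for all genes. Idh2 and Aldoc were called higher (all genes 3.54%) and none was called lower (all genes 3.72%). Day 3 and day 7 were compared with the same virgin animals. Between day 3 and day 7, 4 enzymes rose and 3 fell (all genes 9.97% and 10.5%), and Aldoc and Pdhb were called higher (all genes 2.63%; lower calls 2.17%). The enzymes were mostly bright, with a median signal of 9.83 to 10.33 per array, and the shares of all genes were not matched for brightness. Where all 3 arrays of a group had to reach 100, again 9 enzymes rose and 4 fell at day 3 (all genes 15.3% and 13.1%). At day 7 it was again 8 and 1 (all genes 17.3% and 14.7%). In all, 15 enzymes rose or fell in at least 1 comparison, and 11 did so in none. These shares rest on the quantile normalisation of the deposited values: with each array only centred on its median, the median of all genes itself shifted by 0.27 at day 3 and by 0.24 at day 7, 17 and 18 enzymes rose and none fell, beside 36.0% and 31.7% of all genes that rose and 2.47% and 3.65% that fell.

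**Figure D1:**
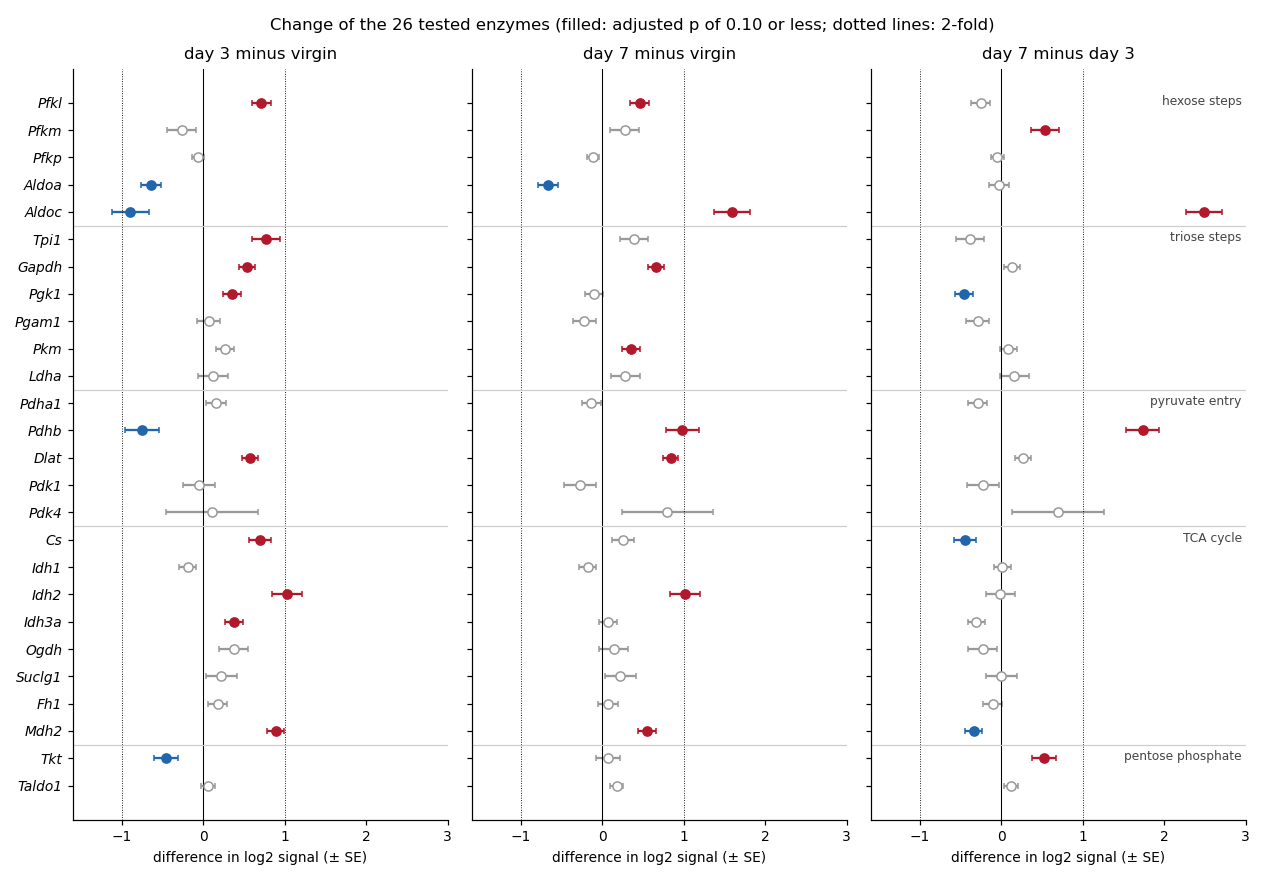
Difference in log2 signal of the 26 tested enzymes (points, with SE as bars) for each day of pregnancy compared with virgin animals and for the step between both days, ordered by pathway; filled red and blue points rose and fell at an adjusted p of 0.10 or less, open points did not pass. Most points lie within the dotted lines of a 2-fold change, and Aldoc and Pdhb lie to the left of 0 at day 3 and to the right at day 7.

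Promoters are shown for 4 enzymes, Aldoc, Pdhb, Idh2 and Ldha, because the first 3 held all the calls and Ldha is the textbook case of a glycolytic gene with binding sites for the hypoxia-inducible factors. Each window runs from 250 bases before the start site to 50 bases after it (RefSeq, GRCm38.p6), 5′ to 3′ on the strand of the gene. Capitals mark matches on either strand to ACGTG, the core of the hypoxia response element, or to CACGTG, the E-box of MYC and related factors, which contains ACGTG on both strands.
Aldoc (chr11:78322823-78323122, plus strand): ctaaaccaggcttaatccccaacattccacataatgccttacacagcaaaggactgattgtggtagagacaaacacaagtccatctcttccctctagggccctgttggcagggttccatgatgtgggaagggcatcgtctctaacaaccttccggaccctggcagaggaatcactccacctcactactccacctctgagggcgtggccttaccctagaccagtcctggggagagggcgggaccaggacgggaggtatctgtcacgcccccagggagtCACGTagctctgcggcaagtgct
Pdhb (chr14:8172943-8173242, minus strand): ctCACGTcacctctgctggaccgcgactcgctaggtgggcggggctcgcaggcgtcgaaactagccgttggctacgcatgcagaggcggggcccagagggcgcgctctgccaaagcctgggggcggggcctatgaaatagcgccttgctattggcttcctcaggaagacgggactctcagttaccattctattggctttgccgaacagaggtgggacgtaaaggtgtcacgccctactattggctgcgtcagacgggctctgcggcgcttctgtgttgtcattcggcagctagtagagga
Ldha (chr7:46845554-46845853, plus strand): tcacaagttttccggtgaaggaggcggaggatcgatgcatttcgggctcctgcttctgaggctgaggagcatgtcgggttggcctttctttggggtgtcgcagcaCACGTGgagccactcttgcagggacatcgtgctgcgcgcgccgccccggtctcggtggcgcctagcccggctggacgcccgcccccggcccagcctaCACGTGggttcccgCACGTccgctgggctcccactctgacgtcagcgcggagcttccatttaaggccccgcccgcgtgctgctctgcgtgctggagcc
Idh2 (chr7:80115301-80115600, minus strand): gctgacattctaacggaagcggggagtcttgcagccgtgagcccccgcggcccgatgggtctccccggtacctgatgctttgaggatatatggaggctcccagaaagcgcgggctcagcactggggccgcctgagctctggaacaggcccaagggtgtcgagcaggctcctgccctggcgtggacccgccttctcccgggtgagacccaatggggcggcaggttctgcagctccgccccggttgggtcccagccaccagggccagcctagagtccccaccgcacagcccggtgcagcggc
Aldoc has 1 match, at +28 from the start site, and none in the window of its other RefSeq start. Pdhb has 1, at -248, and Idh2 has none. Ldha has 5, of which 4 are the 2 strands of its 2 E-boxes, and none in the window of its other RefSeq start.

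Over the whole set ACGTG was found in at least 1 window of 15 of the 34 enzymes with a promoter (44.1%), beside 21.8% of all genes with a promoter. Of the 25 tested enzymes with a promoter 10 held it (40%), beside 28.4% of the named genes tested. Genes with several start sites have several windows and so more places for a match, which these shares do not allow for. The E-box was found in 4 of the 34 (11.8%, all genes 8.09%), and TCAAGGTCA, the element of the estrogen-related receptors, in 0 (all genes 0.466%). Of the 9 enzymes that rose at day 3, 8 had a promoter and 2 of these held ACGTG. All 4 that fell had a promoter and 3 held it, as did 5 of the 13 that passed in neither direction. These matches are letters in a window and not measured binding.

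Of 5 tested enzymes that phosphorylate and split hexoses, 2 fell and 1 rose by day 3 (all genes 10.5% and 12.7%). At day 7 the count was 2 higher and 1 lower (all genes 14.3% and 12.0%). Aldoc, the aldolase known from brain, had the largest change of the whole set. Its signal was 9.35, 10.27 and 9.71 in the virgin animals, 8.92, 8.58 and 9.14 at day 3, and 11.41, 11.30 and 11.39 at day 7. No group overlapped with another, and the day 7 animals were closest to each other. It fell by 0.90 at day 3 (SE 0.22, adjusted p = 0.029) and was 3.02-fold higher than in virgin animals at day 7 (log2 1.59, SE 0.22, adjusted p = 0.0019). From day 3 to day 7 it rose 5.62-fold (log2 2.49, SE 0.22, adjusted p = 3.7e-04). The fall at day 3 was lost with median scaling (-0.19, adjusted p = 0.63) and without day 3 replicate 2 (-0.75, adjusted p = 0.11), while both rises kept their calls under every alternative run. A further Aldoc probe stayed at background in all 3 groups, with means of 6.36, 6.31 and 6.44.

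Aldoa, the aldolase of most tissues, was lower in pregnancy. It read 10.77, 10.61 and 10.39 in virgin animals, 9.83, 9.98 and 10.04 at day 3, and 10.04, 9.90 and 9.82 at day 7. Every pregnant animal lay below every virgin animal, and the pregnant groups overlapped. The enzyme fell by 0.64 at day 3 (SE 0.12, adjusted p = 0.0083). The fall at day 7 had nearly the same size (-0.67, adjusted p = 0.0059). This fall depends on the normalisation: with median scaling the changes were 0.08 and -0.05 (adjusted p = 0.76 and 0.86). Less the median shift of all genes they are -0.19 and -0.28. Aldoa itself moved by more than that shift between the scalings, so these are not corrected changes. Taken within each array, the difference between Aldoa and Aldoc moved by -2.26 from virgin to day 7 and by -2.52 from day 3 to day 7. Both have an exact two-sided permutation p of 0.1, the smallest that 3 against 3 animals allow, and 0.225 after adjustment over the 9 tests of isoform pairs.

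Pfkl, the liver-type subunit of phosphofructokinase, which sets the pace of glycolysis, rose. Its signal was 9.41, 9.38 and 9.57 in virgin animals, 10.29, 10.13 and 10.09 at day 3, and 10.08, 9.96 and 9.70 at day 7. All pregnant animals were above all virgin animals, and those of day 3 above those of day 7. The change was 0.71 at day 3 (SE 0.12, adjusted p = 0.0046) and 0.46 at day 7 (adjusted p = 0.029). The day 7 rise was lost with Cyber-T, the regularised test of the study's methods (adjusted p = 0.17), and without day 7 replicate 1 (0.38, adjusted p = 0.10). A dimmer probe of Pfkl gave 0.22 and 0.14 (adjusted p = 0.23 and 0.40). Pfkm, the muscle-type subunit, was between 8.84 and 9.63 on all arrays and passed only from day 3 to day 7 (0.53, SE 0.18, adjusted p = 0.091). This rise was lost under 10 of 21 alternatives, among them those without day 3 replicate 1, 2 or 3 or day 7 replicate 1 or 2 (0.46 to 0.62). Dimmer probes of Pfkm gave 0.28 and -0.0006 for the same step and did not pass. Pfkp, the platelet-type subunit, read 6.58 to 6.74, close to background, and did not pass. Of the hexokinases in the set, which start the pathway, Hk1 alone had probes, and its 2 probes had group means of 6.31 to 6.53.

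The triose steps, from the splitting of hexose to pyruvate and lactate, rose in part. Of 6 tested enzymes 3 rose at day 3 and none fell (all genes 12.7% and 10.5%). At day 7, 2 rose and none fell (all genes 14.3% and 12.0%). The median changes were 0.31 and 0.32. Tpi1, which interconverts the triose phosphates, read 12.27, 12.60 and 12.43 in virgin animals, 13.26, 13.28 and 13.09 at day 3, and 13.00, 13.05 and 12.41 at day 7. The day 3 animals were above all others, and day 7 replicate 3 fell back into the virgin range. Tpi1 rose by 0.78 at day 3 (SE 0.17, adjusted p = 0.018), and a further probe gave 0.74 (adjusted p = 0.0091). At day 7 the changes of both probes were 0.39 and 0.37 (adjusted p = 0.17 and 0.11). Gapdh, which makes the NADH of glycolysis and is often taken as a reference gene, read 11.71, 11.78 and 11.75 in virgin animals, 12.34, 12.11 and 12.38 at day 3, and 12.43, 12.49 and 12.30 at day 7. Its pregnant animals all lay above the virgin animals and overlapped with each other. Gapdh rose by 0.53 at day 3 (SE 0.10, adjusted p = 0.0082). At day 7 its rise was 0.66 (adjusted p = 0.0026), and both rises passed under all 21 alternatives.

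Pgk1, the first enzyme of glycolysis to make ATP, was high at day 3 only. It read 10.32, 10.48 and 10.57 in virgin animals, 10.96, 10.80 and 10.68 at day 3, and 10.36, 10.25 and 10.46 at day 7. The day 3 animals were above both other groups, which overlapped. The rise at day 3 was small (0.36, SE 0.11, adjusted p = 0.063) and was lost under 8 of 21 alternatives, among them those without virgin replicate 1 or 2 or day 3 replicate 1 or 2 (0.28 to 0.37). From day 3 to day 7 Pgk1 fell by 0.46 (adjusted p = 0.027), which missed the threshold with median scaling, where the change was larger (-0.54, adjusted p = 0.21), and without day 3 replicate 1 (-0.39, adjusted p = 0.11). Pkm, the pyruvate kinase outside liver, read 11.83, 11.85 and 11.54 in virgin animals, 11.96, 11.94 and 12.11 at day 3, and 12.16, 11.98 and 12.13 at day 7. Pregnant animals lay above virgin animals throughout, by little. Its change was 0.26 at day 3 (adjusted p = 0.16) and a rise of 0.35 at day 7 (SE 0.11, adjusted p = 0.064), lost under 7 of 21 alternatives, among them those without virgin replicate 3 or day 7 replicate 1 or 3 (0.25 to 0.33). Ldha, which makes lactate, read 10.42 to 11.35 and Pgam1, the mutase between the ATP steps, 7.19 to 7.75, and neither passed in any comparison (lowest adjusted p = 0.34 and 0.24). The probe of Ldhb, the heart-type subunit, stayed at a mean of 6.53 to 6.55.

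**Figure D2:**
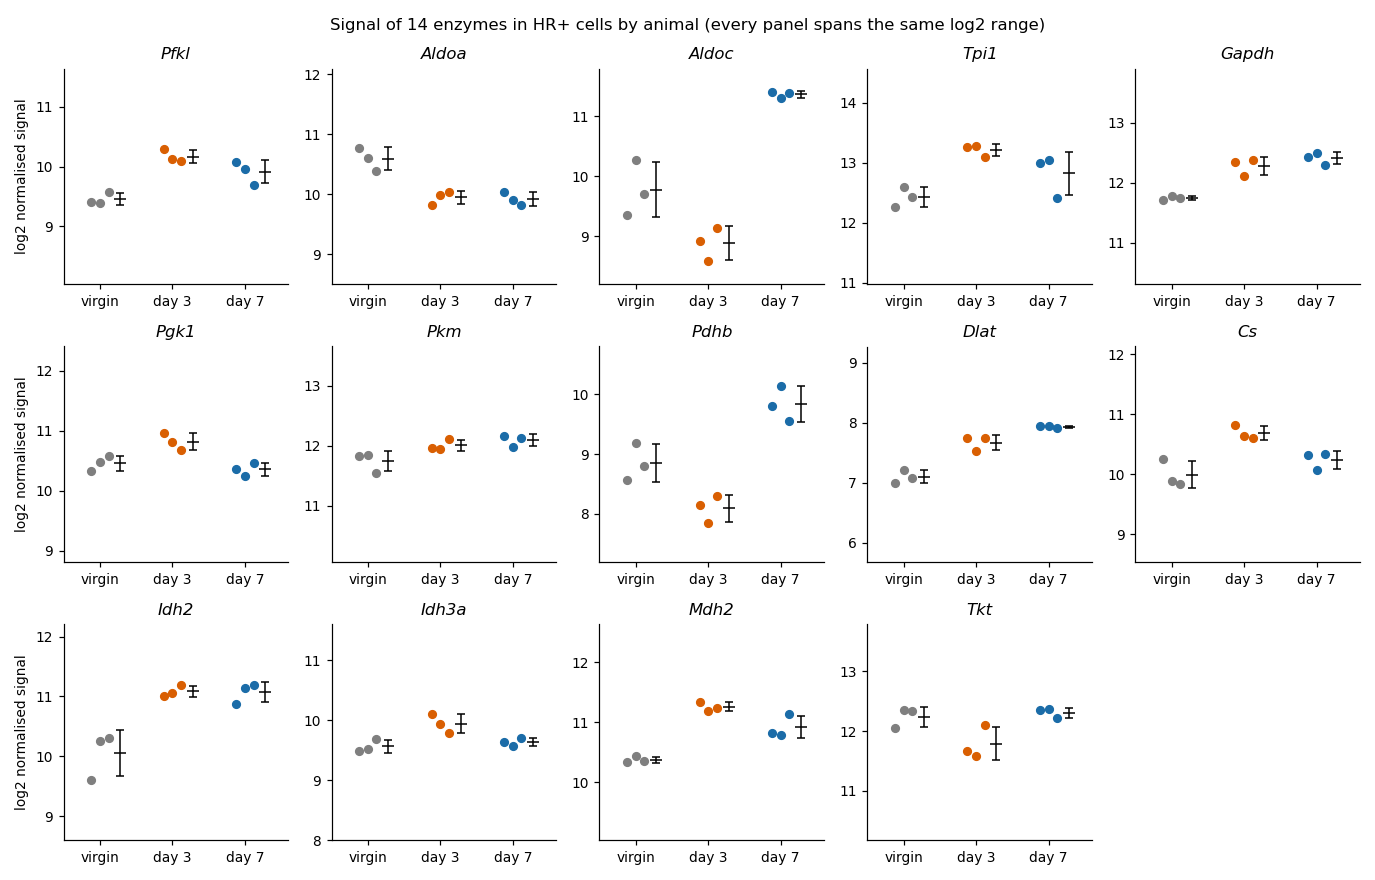
Log2 normalised signal of 14 enzymes in each animal (points), with the mean and SD of each group of 3 (bars), every panel spanning the same log2 range. Aldoc and Pdhb are lowest at day 3 and highest at day 7, Aldoa is highest in virgin animals, and Idh2 and Dlat are lowest there.

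Of the tested genes of the pyruvate dehydrogenase complex, Dlat rose on both days, Pdha1 did not pass and the probes of Pdhb disagreed. Whether their changes differ from each other was not tested. Dlat, the acetyl transferase of the complex, read 7.00, 7.21 and 7.08 in virgin animals, 7.74, 7.53 and 7.74 at day 3, and 7.94, 7.95 and 7.92 at day 7. The 3 groups were separate and went up in this order. Dlat rose by 0.57 at day 3 (SE 0.10, adjusted p = 0.0049). Its rise at day 7 was 0.84 (adjusted p = 6.4e-04), and both passed under all alternatives. The step from day 3 to day 7 was 0.27 (adjusted p = 0.12). Pdha1, the alpha subunit of the decarboxylase that opens the reaction, read 11.18 to 11.71 and did not pass (lowest adjusted p = 0.17).

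Pdhb, the beta subunit of that decarboxylase, gave an answer that depends on the probe. Its brightest probe, which is annotated to a cDNA clone, read 8.56, 9.19 and 8.80 in virgin animals, 8.15, 7.85 and 8.29 at day 3, and 9.81, 10.14 and 9.54 at day 7. Its 3 groups did not overlap, with day 3 lowest and day 7 highest. The probe fell by 0.75 at day 3 (SE 0.20, adjusted p = 0.039), lay 1.97-fold above virgin animals at day 7 (log2 0.98, SE 0.20, adjusted p = 0.012), just short of a call, and rose 3.33-fold from day 3 to day 7 (log2 1.73, adjusted p = 0.0013). The fall at day 3 was lost with median scaling (-0.14), with the mean of the 3 tested probes (-0.27, adjusted p = 0.14), without virgin replicate 2 (-0.58, adjusted p = 0.11) and without day 3 replicate 2 (-0.63, adjusted p = 0.14). The 2 probes annotated to the RefSeq transcript of Pdhb did not follow. One had means of 7.21, 7.22 and 7.22 and the other of 6.80, 6.75 and 6.80, with changes between -0.05 and 0.05. With that mean the step from day 3 to day 7 was 0.59. Of 10 enzymes with 2 or more tested probes, 6 passed on the brightest probe in some comparison, and for Tpi1 alone a further probe passed too.

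**Figure D3:**
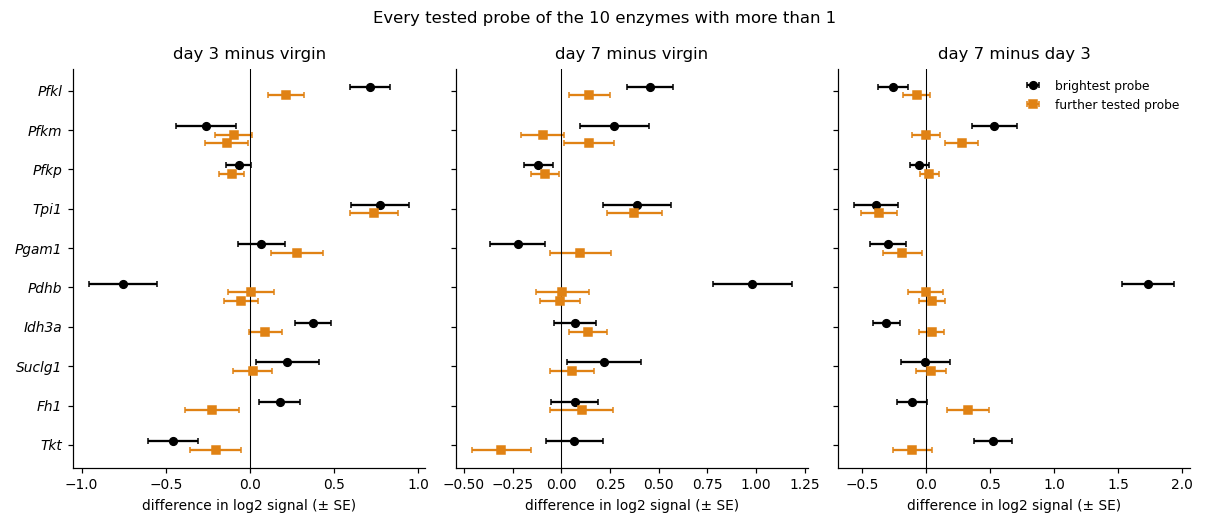
Difference in log2 signal (with SE) of every tested probe of the 10 enzymes that have more than 1, for the brightest probe (black circles) and further probes (orange squares). The probes of Tpi1 lie together, while the further probes of Pdhb lie at 0 where the brightest is at -0.75, 0.98 and 1.73.

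Of the kinases that switch the complex off, Pdk1 and Pdk4 did not pass in any comparison. Pdk1 read 6.78 to 7.50. Pdk4, known to be induced when fat is burned in place of glucose, read 8.07, 7.95 and 7.78 in virgin animals, 8.21, 7.93 and 7.97 at day 3, and 7.49, 8.43 and 10.28 at day 7. The day 7 animals thus held both the lowest and the highest value, and the change of 0.80 has an SE of 0.56 (adjusted p = 0.38). Day 7 replicate 3, with the highest Pdk4, also had the highest summed signal of basal markers, 13210, against 3085 and 4641 in the other day 7 animals; the part of these cells was not tested. The probe of Pdk2 had means of 6.38 to 6.48. Pdk3, which is not among the 35 and was chosen after its values were seen, rose by 0.86 at day 3 (SE 0.17, adjusted p = 0.011). Its rise at day 7 was 0.74 (adjusted p = 0.019). It read 7.62, 7.33 and 7.00 in virgin animals, 8.11, 8.27 and 8.16 at day 3, and 8.12, 8.27 and 7.80 at day 7, with all pregnant above all virgin animals.

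Enzymes of the TCA cycle, counted with the NADPH-making isocitrate dehydrogenases Idh1 and Idh2, rose in part. Of 8 tested, 4 rose at day 3 and none fell (all genes 12.7% and 10.5%). At day 7, 2 rose and none fell (all genes 14.3% and 12.0%). The median changes were 0.38 and 0.18. From day 3 to day 7, 2 fell and none rose (all genes 10.5% and 9.97%). Idh2, the mitochondrial isocitrate dehydrogenase that makes NADPH, was called higher on both days. It read 9.61, 10.25 and 10.31 in virgin animals, 11.00, 11.06 and 11.19 at day 3, and 10.88, 11.14 and 11.19 at day 7. All pregnant animals were above all virgin animals, the groups of day 3 and day 7 overlapped, and virgin replicate 1 was the lowest. The rise was 2.04-fold at day 3 (log2 1.03, SE 0.18, adjusted p = 0.0067) and 2.02-fold at day 7 (log2 1.01, SE 0.18, adjusted p = 0.0063). Both sit at the edge of the 2-fold limit. Without virgin replicate 1 they were 0.80 and 0.79, still with adjusted p = 0.0042 and 0.0043, and the rise itself passed under all 21 alternatives. Idh1, the NADPH-making form of the cytosol, was near background at 6.43 to 6.82 and did not pass.

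Mdh2, the malate dehydrogenase that closes the cycle, had the lowest adjusted p of the set at day 3. It read 10.33, 10.43 and 10.35 in virgin animals, 11.34, 11.19 and 11.24 at day 3, and 10.83, 10.79 and 11.13 at day 7. The 3 groups were separate, with day 3 the highest. Mdh2 rose by 0.89 at day 3 (SE 0.11, adjusted p = 0.0011). At day 7 it was still 0.55 above virgin animals (adjusted p = 0.0091). The step down from day 3 to day 7, -0.34 (adjusted p = 0.076), was lost under 11 of 21 alternatives, among them those without any single day 3 animal or without day 7 replicate 1 or 2 (-0.37 to -0.28). All 3 probes of Mdh1, the cytosolic form, were under background on all 9 arrays.

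Cs, the citrate synthase that starts the cycle, read 10.25, 9.88 and 9.84 in virgin animals, 10.83, 10.63 and 10.61 at day 3, and 10.33, 10.07 and 10.33 at day 7. The day 3 animals stood above both other groups, which overlapped. Cs rose by 0.70 at day 3 (SE 0.14, adjusted p = 0.0097) and fell by 0.45 from day 3 to day 7 (adjusted p = 0.067), the fall lost under 7 of 21 alternatives, among them those without any single day 3 animal or without day 7 replicate 1 or 2 (-0.49 to -0.36). Idh3a, the catalytic subunit of the NAD-dependent isocitrate dehydrogenase, read 9.49, 9.52 and 9.69 in virgin animals, 10.11, 9.94 and 9.79 at day 3, and 9.63, 9.57 and 9.71 at day 7. It too was highest in the day 3 animals, by 0.38 (SE 0.11, adjusted p = 0.046). This rise was lost under 6 of 21 alternatives, among them those without virgin replicate 2 or day 3 replicate 1 or 2 (0.30 to 0.38). A dimmer probe of Idh3a, close to background with means of 6.57, 6.66 and 6.71, gave 0.09 at day 3 (adjusted p = 0.60). Ogdh, Suclg1 and Fh1, which carry the cycle from oxoglutarate through succinate to malate, did not pass (lowest adjusted p = 0.22, 0.48 and 0.39), with changes at day 3 of 0.37, 0.22 and 0.18. Pfkl, Tpi1, Pgk1, Cs, Idh3a and Mdh2, which were highest at day 3, share this with the cycling markers, whose summed signal was 6398 to 9025 at day 3 and at most 2568 in the other animals; the part of dividing cells in these values was not tested.

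In the pentose phosphate pathway the members that could be tested, Tkt and Taldo1, belong to the non-oxidative branch. Tkt, the transketolase that links the pathway back to glycolysis, read 12.05, 12.34 and 12.33 in virgin animals, 11.66, 11.59 and 12.10 at day 3, and 12.34, 12.37 and 12.21 at day 7. Day 3 replicate 3 overlapped with the virgin animals, while the other 2 day 3 animals were below all others. Tkt fell by 0.46 at day 3 (SE 0.15, adjusted p = 0.075), a fall lost under 12 of 21 alternatives, among them those without virgin replicate 2 or 3, day 3 replicate 1 or 2, or day 7 replicate 1 or 2 (-0.46 to -0.36), and turned to 0.13 with median scaling. It rose by 0.52 from day 3 to day 7 (adjusted p = 0.053), lost under 6 of 21, among them those without replicate 1 or 2 of day 3 or day 7 (0.43 to 0.50). A dimmer probe of Tkt, with means of 7.02, 6.81 and 6.71, did not pass. Taldo1, the transaldolase, was the steadiest of the bright enzymes, at 12.16 to 12.47 on all arrays (lowest adjusted p = 0.20). Pgd, the enzyme of the oxidative branch that had a probe, stayed at means of 6.38 to 6.42.

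**Figure D4:**
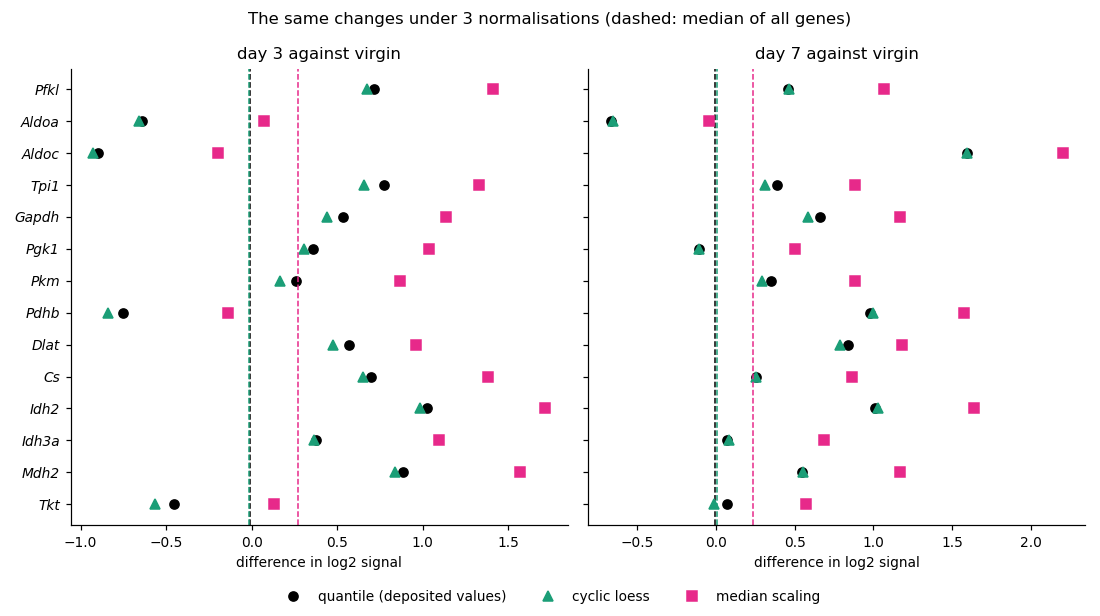
Difference in log2 signal against virgin of 14 enzymes at day 3 (left) and day 7 (right) under 3 normalisations, with the median of all genes under each as a dashed line of the same colour. Median scaling moves each of these enzymes to the right, by more than the shift of all genes of 0.27 and 0.24, and takes Aldoa and Tkt past 0 at day 3.

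Other genes of these pathways moved in both directions. Of 107 genes in 6 lists, 70 were tested. At day 3, 16 rose and 5 fell (all genes 12.7% and 10.5%), of which 4 and 1 were called (all genes 2.82% and 3.00%). At day 7, 16 rose and 8 fell (all genes 14.3% and 12.0%), of which 4 and 2 were called (all genes 3.54% and 3.72%). From day 3 to day 7, 8 rose and 10 fell (all genes 9.97% and 10.5%), of which 2 and 2 were called (all genes 2.63% and 2.17%). Of 17 other genes of pyruvate entry and the cycle, 6 rose at day 3, none fell and 11 did not pass, with a median change of 0.09. Me2, the mitochondrial malic enzyme, was not above background in any virgin animal and at least 2.41-fold higher at day 3, a bound taken against the level of 100 (adjusted p = 4.5e-04), with 7.90, 7.88 and 7.96 on the day 3 arrays and 7.52, 7.06 and 6.86 at day 7. In the shuttles and citrate export, Slc25a1, the mitochondrial citrate carrier, read 9.43 to 9.68 in virgin animals, 9.30 to 9.33 at day 3 and 10.40 to 10.49 at day 7. It was 1.13 higher at day 7 than at day 3 (SE 0.09, adjusted p = 2.4e-04), and a dimmer probe gave 0.14. Gpd2, the mitochondrial glycerol phosphate dehydrogenase, was called higher at day 3 (1.02, SE 0.33, adjusted p = 0.072) and lower from day 3 to day 7 (-1.22, adjusted p = 0.043), with day 3 arrays at 8.25, 8.54 and 7.55. Its rise was lost without virgin replicate 2 (0.81) or 3 (1.07) or day 3 replicate 1 (0.95) or 2 (0.80), its fall without replicate 1 or 2 of day 3 or 2 or 3 of day 7 (-1.15 to -1.01), and a dimmer probe gave 0.03 and -0.12.

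Of 8 tested carriers for glucose, lactate and pyruvate none passed at day 3 (all genes 12.7% higher and 10.5% lower). At day 7, 2 rose and none fell (all genes 14.3% and 12.0%). Slc2a3, a glucose transporter, read 7.12, 7.40 and 6.32 in virgin animals, 7.57, 7.03 and 9.10 at day 3, and 8.70, 8.38 and 9.50 at day 7, so that replicate 3 was the highest of both pregnant groups. It was called higher at day 7 (1.92, SE 0.53, adjusted p = 0.038), a call lost without virgin replicate 3 (1.60, adjusted p = 0.12) or day 7 replicate 3 (1.59, adjusted p = 0.11). Slc2a1, the transporter found in most cells, did not pass (-0.24 at day 3 and -0.30 at day 7); it was chosen after its values were seen. In the pentose phosphate list H6pd, the glucose phosphate dehydrogenase of the endoplasmic reticulum, was called higher at day 7 (1.33, SE 0.20, adjusted p = 0.0028), from 10.63 to 11.30 in virgin animals to 11.99 to 12.58. Pgls, the lactonase of the oxidative branch, chosen after its values were seen, read 10.90 to 11.03 in virgin animals and 11.34 to 11.59 at day 7 and rose by 0.49 (adjusted p = 0.011). Rpia, which makes ribose phosphate, was called lower from day 3 to day 7 (-1.12, SE 0.16, adjusted p = 0.0031). Pfkfb3, which makes the activator of phosphofructokinase, was called lower at day 7 (-1.01, SE 0.14, adjusted p = 0.0016) and had fallen by 0.76 at day 3. It read 7.30, 7.72 and 7.51 in virgin animals and 6.71, 6.50 and 6.29 at day 7, where its mean was under background. Without virgin replicate 2 or day 7 replicate 3 the day 7 change was -0.90 and -0.91, under the 2-fold limit. The same held with median scaling (-0.79), cyclic loess normalisation (-0.90) and array weights (-0.99).

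The transcription factors held the largest changes around these enzymes. The probes of Mlxipl, which switches on glycolytic and fat synthesis genes when sugar is plentiful, disagreed. The brightest was not above background in any virgin animal and at least 3.95-fold higher at day 3 (adjusted p = 1.2e-04) and at least 2.75-fold higher at day 7 (adjusted p = 2.9e-04). A further Mlxipl probe, above background on all 9 arrays and at 6.97 to 7.47 in virgin animals, gave 0.26 and -0.20 (adjusted p = 0.42 and 0.53). Arnt, the partner of the hypoxia-inducible factors, read 9.99, 9.29 and 9.41 in virgin animals, 8.38, 8.13 and 7.94 at day 3, and 7.70, 7.57 and 7.94 at day 7. It was called lower on both days (-1.42, SE 0.20, adjusted p = 0.0021, and -1.83, adjusted p = 4.8e-04), while 4 dimmer tested probes of Arnt gave changes of -0.08 to 0.23. Hif3a, a further member of that family, rose by 1.39 at day 3 and by 4.45 at day 7 (SE 0.33, adjusted p = 0.023 and 6.8e-05). It read 6.61, 7.65 and 6.30 in virgin animals, 8.21, 8.42 and 8.10 at day 3, and 11.43, 11.64 and 10.85 at day 7. Virgin replicates 1 and 3 were under the background of 6.64, so the size of both changes is uncertain. A dimmer probe of Hif3a stayed at 6.58 to 6.86 on all arrays.

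**Figure D5:**
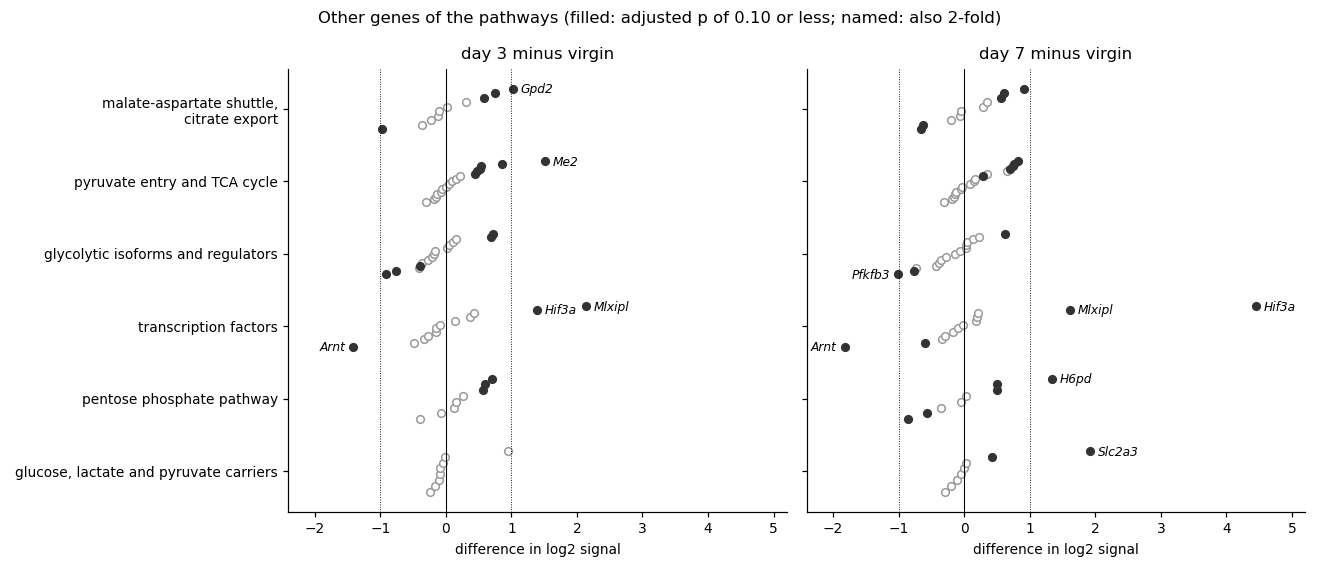
Difference in log2 signal against virgin of 70 other genes of the same pathways at day 3 (left) and day 7 (right), 1 row of points per list, filled where the adjusted p is 0.10 or less and named where the change is also 2-fold or more. The named points farthest from 0 are transcription factors, Mlxipl at day 3 and Hif3a at day 7. The plotted probes of Me2 and Mlxipl were under background in virgin animals, and that of Hif3a in virgin replicates 1 and 3.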

How the data were processed

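Arrays were Illumina Mouse WG-6 v2.0. The authors log2 transformed and quantile normalised the signal, and these deposited log2 values were analysed. The deposited intensity values, on the linear scale and not normalised, served the alternatives; the same steps applied to them gave log2 values that differed by 0.0238 on average. Detection p columns were empty, and the slide of each array is not given in the sources used here. Of 45281 probes, 18707 had a group mean at or above a signal of 100 and were tested in R 4.3.3 with limma 3.58.1 on all 9 arrays, with Benjamini-Hochberg adjustment over all of them; a simulation tested the scripts. Symbols came from the platform annotation updated by Entrez identifier, and 10396 probes had no single name. A gene takes the value of its brightest tested probe. Values of all animals are given for members called in any comparison and then those with the lowest adjusted p, up to 14, and genes of other lists are named if called, up to 4 per list and comparison. Members and lists were chosen with earlier results of these data known. Housekeeping genes were also listed (7 tested; 3 rose and 1 fell at day 3, 2 rose and 3 fell at day 7), as were markers of endothelial, adipocyte, lymphocyte and macrophage cells (4, 1, 2 and 4 tested; at day 3, 2 macrophage markers fell, and at day 7, 1 endothelial marker rose). With 3 animals per group the number of arrays limits the precision. Promoters and figures used Python 3.11.15 and matplotlib 3.10.9.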

Additional observations from a re-analysis of the deposited data

Results flagged for a closer look

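The change of Aldoc against virgin animals differed between the days: it was -0.90 at day 3 and 1.59 at day 7, a difference of 2.49 (SE 0.22, adjusted p = 3.7e-04 from limma), with every day 7 animal above and every day 3 animal below every virgin animal. The brightest probe of Pdhb gave the same picture, -0.75 and 0.98, a difference of 1.73 (SE 0.20, adjusted p = 0.0013), while its other 2 tested probes gave 0.00 and 0.05. Groups of 3 are too small for a test of single outlying animals.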

How the results depend on the processing

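The changes of the 15 members that rose or fell in at least 1 comparison were followed under the alternatives. Of these 1035 values, 969 kept their direction and their side of the 2-fold call, 9 lost a call, 43 gained one and 14 changed sign. Only changes called with the deposited values, those of Idh2, Aldoc and Pdhb, could lose a call. Smaller rises and falls that lost only their adjusted p are still among the 969. The fall of Tkt at day 3, lost under 12 of 21 alternatives, is a case. The 969 thus do not measure how many rises and falls held. Part of the 43 gains came from dropping the minimum fold. There the fit is unchanged and every change that passed the adjusted p counts as a call by definition, so these gains test nothing. With median scaling, called higher were 9 members and 17 other pathway genes at day 3, and 7 and 11 at day 7. Called lower were 0 other genes at day 3 and 1 at day 7. Calls grew over the whole array too: 1602 and 1501 of all genes were called in either direction, beside 655 and 818 with the deposited values. Median scaling turned Pfkm (0.44), Aldoa (0.075) and Tkt (0.13) at day 3 and Pgk1 (0.50) at day 7. With no minimum fold, 9 members were higher and 4 lower at day 3, 8 and 1 at day 7, and 4 and 3 from day 3 to day 7; for the other genes these were 16 and 5, 16 and 8, and 8 and 10. Cyclic loess left 0 members called higher at day 3 (Idh2 0.98) and 1 other gene called lower at day 7; it turned Tkt at day 7 (-0.016) and, from day 3 to day 7, Aldoa (0.0010) and Idh2 (0.046). Array weights gave 0 members higher and 1 lower at day 3 (Idh2 0.93, Aldoc -1.04), 1 higher at day 7 (Idh2 0.90), 1 other gene lower at day 7, and Aldoa at 0.015 from day 3 to day 7. The mean of the tested probes gave 1 member higher from day 3 to day 7, 2 other genes higher and 0 lower at day 3, 1 lower at day 7, 1 higher and 1 lower from day 3 to day 7, and Tkt at -0.12 at day 7. Normexp correction gave 2 other genes lower at day 3 and lifted Pdhb at day 7 over the 2-fold limit (1.02).

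Leaving out 1 animal at a time gave 0 to 1 members called higher and 0 to 1 lower at day 3, and 1 to 3 higher at day 7; for the other genes it gave 1 to 2 lower in each comparison. Idh2 lost its day 3 call without virgin replicate 1 (0.80) or day 3 replicate 3 (0.97), and its day 7 call without virgin replicate 1 (0.79), day 7 replicate 2 (0.98) or day 7 replicate 3 (0.95). Pdhb gained a day 7 call without virgin replicate 2 (1.15) or day 7 replicate 3 (1.12), and Aldoc a day 3 call without virgin replicate 1 (-1.11) or day 3 replicate 3 (-1.03). Signs turned within -0.030 to 0.12 for Tkt at day 7 and, from day 3 to day 7, within -0.092 to 0.019 for Aldoa and -0.074 to 0.084 for Idh2. The cause of these changes was not tested.

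Same-numbered animals did not deviate together (correlations of -0.05 to 0.07 over 9 pairs, -0.07 to 0.07 for different numbers), so the numbers are not taken as pairs. With the replicate number as a block, 8 members rose and 3 fell at day 3, 7 and 1 at day 7, and 3 and 2 from day 3 to day 7, and the calls at 2-fold kept their counts of 1, 2 and 2 higher. A slide block could not be fitted. Calling a gene on any tested probe was chosen after seeing the data. Signal limits dim enzymes: before normalisation 28.1 to 48.4% of all probes on each array were at or over 100.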
